A study of Mus musculus with 463 samples.

Results

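Ngn3-GFP-high cells were compared with Ngn3-GFP-low cells of the mouse embryonic pancreas at E14.5, on the dorsal and on the ventral side. The comparison took every E14.5 bulk library of the series sorted by this reporter: 4 Ngn3-high and 4 Ngn3-low libraries, 8 of the 16 bulk libraries and of 463 samples in all, with side as a term of the model. The groups were dorsal pancreas Ngn3-H, dorsal Ngn3-L, ventral pancreas Ngn3-H and ventral Ngn3-L, each with libraries #1 and #2. All cells carried the same reporter, in which GFP reports the gene Neurog3 (Ngn3), and none had a listed treatment or culture time. The low gate is labelled low and not negative, and where the gates were drawn, how the reporter was built, the strain, and how many embryos went into a library are not stated in any source at hand. Replicates are numbered only, so p-values measure the spread between these libraries, which may be technical.

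NEUROG3 is the transcription factor that commits epithelial progenitors of the embryonic pancreas to the endocrine fate. Progenitors of the trunk epithelium, which carry SOX9 and active Notch signalling, switch it on briefly and strongly; the cells then stop dividing, leave the epithelial cords and turn on the factors and secretory machinery of islet cells. Trunk cells that do not switch it on remain duct-like. Acinar cells, which make digestive enzymes, form from the tips of the epithelium.

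Per library, 10884810 to 24551520 reads fell on genes, 19400 to 21238 genes were detected, and the 2 libraries of a group had a Pearson correlation of 0.9865 to 0.993 on log2 CPM across genes. Levels are CPM, read counts set to a common library size after TMM scaling. Where 4 values are given for a gate, they stand in the order dorsal 1, dorsal 2, ventral 1, ventral 2. Fold changes are log2 values, Ngn3-high over Ngn3-low, with side in the model. A gene passed at an adjusted p under 0.05 in the quasi-likelihood F test of edgeR, adjusted by Benjamini-Hochberg over 15872 tested genes. Because most genes passed, a stricter test against a 2-fold change was run beside it.

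The sort was first checked on the gene the reporter reports. Neurog3 (GRCm38 chromosome 10, 62133090 to 62134763) stood at 888, 979, 926 and 1051 CPM in the Ngn3-high libraries, against 99.5, 150.4, 109.5 and 128 CPM in the Ngn3-low libraries (log2 fold change 2.98, SE 0.12, adjusted p = 1.3e-09). The 4 high libraries lay within a narrow range, far above the low ones, but Neurog3 RNA was present in every low library, so the low gate was not free of it. Across the genome the gates differed widely: 6196 genes were higher (39.0% of those tested) and 6255 lower (39.4%), and 2234 (14.1%) and 2865 (18.1%) passed the test against 2-fold, 32.1% in all. All 4 high libraries lay above all 4 low ones for 36.6% of the genes, and below them for 36.9%. Counts of passing or non-overlapping members are therefore to be read against these shares. The median log2 fold change of all genes was 0.01.

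The low gate also held RNA of cells outside the pancreatic epithelium. Summed over 10 endothelial markers the level was 17 to 27.3 CPM in the Ngn3-high libraries, against 309.9 to 1009 CPM in the Ngn3-low libraries, and all 10 were lower in Ngn3-high, among them Kdr (-6.20 on the log2 scale), Tek (-6.09) and Cdh5 (-6.07). The low sums were uneven, at 898, 448, 1009 and 309.9 CPM, so that library 1 of each side held over 2 times as much as library 2. The 10 immune markers summed to 17.4 to 24.4 CPM in the Ngn3-high libraries, against 175 to 244 CPM in the Ngn3-low libraries, and all 10 were lower, Tyrobp (-7.30), C1qb (-5.81) and Mrc1 (-5.45) among them. The 16 mesenchyme markers summed to 78.4 to 170.5 CPM in the Ngn3-high libraries, against 246.5 to 1276 CPM in the Ngn3-low libraries. The low sums were 501.8, 246.5, 1276 and 315 CPM, highest in ventral library 1 and with library 1 above library 2 on each side. Of 13 tested members 10 were lower, such as Foxf1 (-4.38), Wt1 (-3.90), Pdgfrb (-3.10) and Col3a1 (-2.33). The 11 liver markers summed to 23.1 to 33.3 CPM in the Ngn3-high libraries, against 69.7 to 381 CPM in the Ngn3-low libraries, with the lowest low value in dorsal library 1. Of these 9 were lower, such as Apob (-4.83), Alb (-4.08), Afp (-3.84) and Fgg (-2.51). The 11 erythroid markers overlapped between the gates, at 12.1 to 30.2 CPM in the Ngn3-high libraries, against 12.6 to 36.2 CPM in the Ngn3-low libraries, with 4 of 10 tested members lower, Epor (-3.84) and Klf1 (-2.22) among them. In the Ngn3-high libraries no endothelial, immune, mesenchyme or liver marker was at 0 reads in all 4 libraries, but 3, 5, 6 and 4 of them stayed under 1 CPM in each. In bulk RNA fewer cells of a type and less RNA per cell cannot be told apart, and the part these cells play in the other differences was not tested. Of the 12 neural crest and neuron markers, 4 of 9 tested were higher, 4 lower and 1 did not pass, with summed levels of 271 to 317 CPM in the Ngn3-high libraries, against 90.3 to 121 CPM in the Ngn3-low libraries; Th (5.89), Ednrb (-4.15) and S100b (-4.63) show the split, and Ret, a receptor of the growth factor GDNF, made up most of the Ngn3-high sums at 219, 226, 228 and 259 CPM in Ngn3-high against 38, 33.8, 45.3 and 44 CPM in Ngn3-low libraries.

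**Figure D1:**
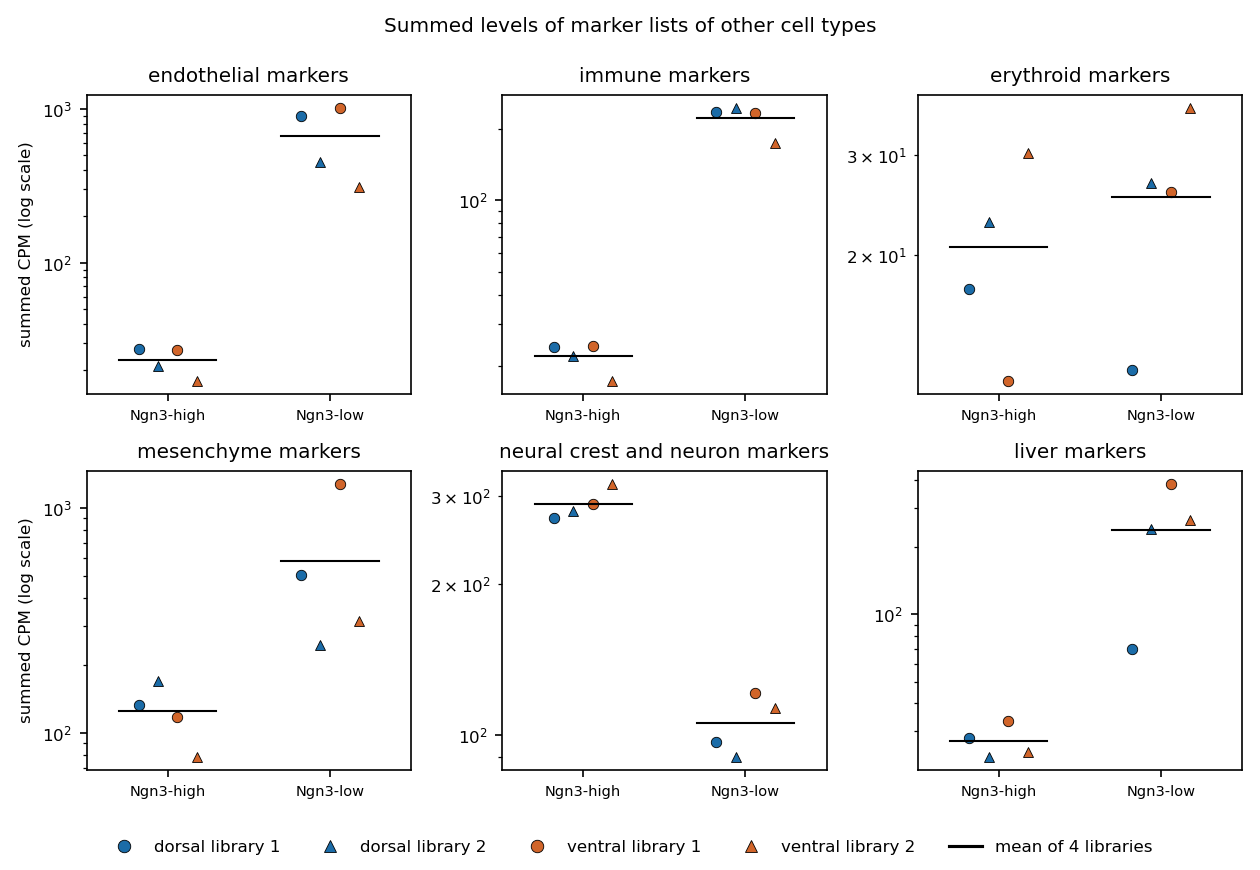
Summed CPM (log axis) of 6 marker lists of other cell types in each library, with Ngn3-high left of Ngn3-low; points are libraries, coloured by side, and bars are means of 4. Endothelial sums lay at 17 to 27.3 CPM in Ngn3-high and 309.9 to 1009 CPM in Ngn3-low libraries, while erythroid sums overlapped.

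Transcription factors of the endocrine cascade were higher in Ngn3-high cells: all 24 listed factors passed, 23 of them against 2-fold, with a median log2 fold change of 5.46. Several were nearly absent from the low gate. Neurod1, a direct target of NEUROG3, stood at 409, 403, 431 and 430.2 CPM in the Ngn3-high libraries, against 1.25, 1.58, 1.31 and 0.659 CPM in the Ngn3-low libraries (log2 fold change 8.44, SE 0.12, adjusted p = 1.34e-12). Fev, a factor of the late progenitor state, stood at 204, 229, 267 and 268 CPM in the Ngn3-high libraries, against 0.439, 0.567, 1.24 and 0.779 CPM in the Ngn3-low libraries (log2 fold change 8.32, SE 0.12, adjusted p = 1.35e-12). The groups did not overlap for either gene, and the 4 high values of each lay close together.

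Factors of islet cell types were higher too. Pax4, which directs beta and delta cells, stood at 203, 210, 239 and 252 CPM in the Ngn3-high libraries, against 6.71, 8.57, 7.27 and 11.4 CPM in the Ngn3-low libraries (log2 fold change 4.73, SE 0.11, adjusted p = 1.85e-11). The groups were far apart, but Pax4 RNA was measurable in all 4 low libraries. Pax6 (log2 fold change 8.44, SE 0.11, adjusted p = 1.04e-12) and Isl1 (log2 fold change 7.55, SE 0.18, adjusted p = 1.7e-11), which all islet cell types need, were higher as well. Pax6 stood at 675, 668, 728 and 664 CPM in the Ngn3-high libraries, against 2.13, 2.08, 2.36 and 1.32 CPM in the Ngn3-low libraries, an even level across the high libraries.

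Other factors of the list had sizeable levels in the low gate. Nkx2-2, needed for beta cells, had a log2 fold change of 2.38 and stood at 114, 139, 118 and 142 CPM in Ngn3-low libraries. Insm1, a zinc finger factor that acts beside NEUROG3, had 3.95, with 49.6, 83.5, 49.6 and 65.8 CPM in Ngn3-low. Nkx6-1, which marks trunk progenitors and later beta cells, stood at 496, 484, 569.9 and 547 CPM in the Ngn3-high libraries, against 214, 237, 202 and 212 CPM in the Ngn3-low libraries (log2 fold change 1.27, SE 0.07, adjusted p = 1.91e-08). Rfx3, a factor of cilia and islet cells, had the smallest difference of the list (log2 fold change 0.80, SE 0.17, adjusted p = 0.0011) and was the member that did not pass against 2-fold.

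**Figure D2:**
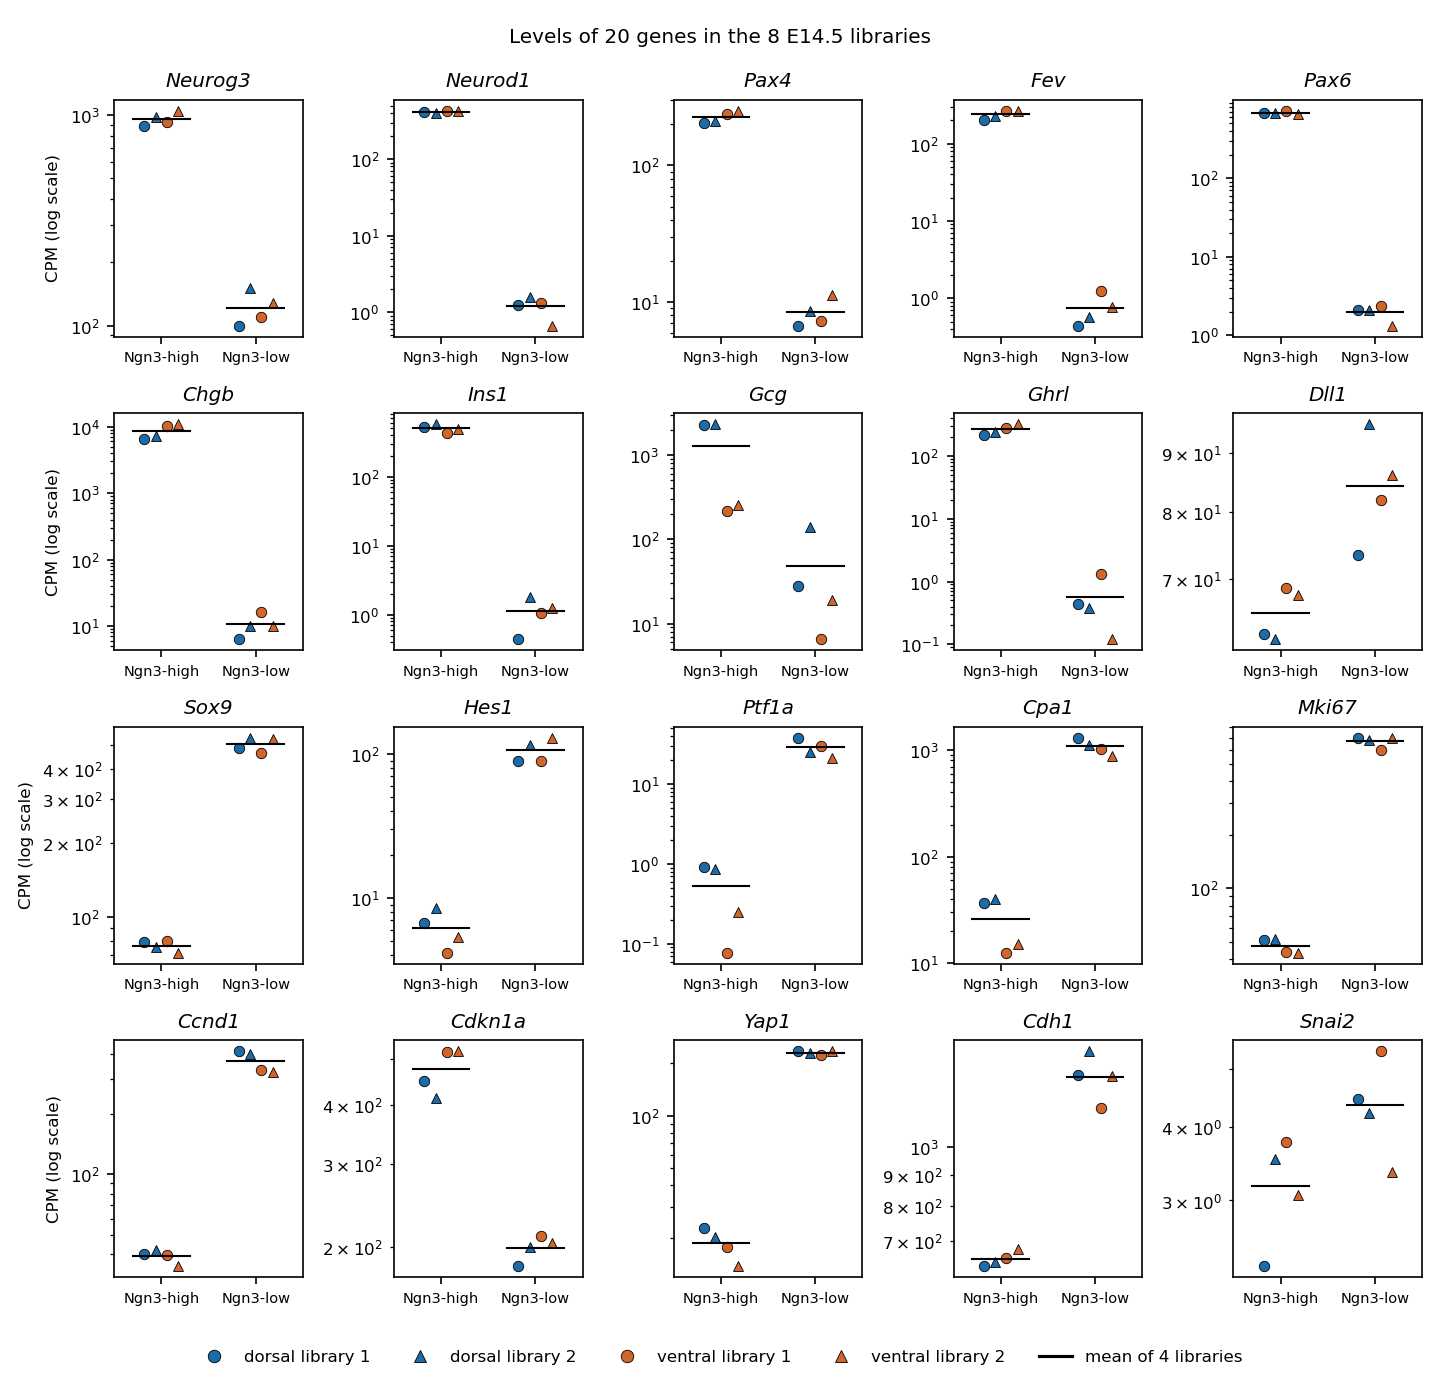
CPM (log axes, which differ between panels) of 20 genes in each of the 8 libraries, Ngn3-high left of Ngn3-low; points are libraries, coloured by side, and bars are means of 4. Neurog3 and the endocrine genes were higher in all 4 Ngn3-high libraries, Sox9, Hes1, Ptf1a, Cpa1, Mki67, Ccnd1, Yap1 and Cdh1 were lower in all 4, Dll1 differed little, and the gates overlapped for Snai2.

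Genes named for the early endocrine progenitor were mostly higher. Of 18, 16 were higher, 14 of them against 2-fold, and 2 were lower, with a median of 3.07. Cck, the gene of the gut hormone cholecystokinin, rose most (log2 fold change 7.77, SE 0.17, adjusted p = 1.17e-11), followed by Igfbpl1, a secreted binding protein (log2 fold change 5.77, SE 0.12, adjusted p = 7.4e-12), Eya2, a transcriptional coactivator (log2 fold change 5.44, SE 0.20, adjusted p = 6.33e-10), and Btbd17 (log2 fold change 4.17, SE 0.11, adjusted p = 5.22e-11). Gadd45a, a stress-induced gene, stood at 292, 318, 319.8 and 373 CPM in the Ngn3-high libraries, against 16.6, 28.8, 18.4 and 24.6 CPM in the Ngn3-low libraries. The 2 lower members were Dll1 and Sox4. Sox4, a factor needed for normal Neurog3 induction, stood at 421, 406, 494 and 509 CPM in the Ngn3-high libraries, against 506, 553, 506 and 529 CPM in the Ngn3-low libraries (log2 fold change -0.20, SE 0.07, adjusted p = 0.0224). Its groups overlapped, and the call ended without either dorsal library of either gate, with adjusted p from 0.0513 to 0.107, and in the ventral contrast alone (adjusted p = 0.627).

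Hormone genes had the largest median difference of the 28 lists. Of 19 listed, 16 were tested and all 16 were higher, each against 2-fold, with a median log2 fold change of 7.62. In most fits with 1 library left out, 1 listed hormone gene passed as lower. Nts, Vip and Adcyap1 were too low to test, and Vip had no read in the Ngn3-high libraries. Insulin RNA came from both mouse genes. Ins1 (chromosome 19, 52264297 to 52265476) stood at 530.4, 579.6, 426 and 487 CPM in the Ngn3-high libraries, against 0.439, 1.83, 1.05 and 1.26 CPM in the Ngn3-low libraries (log2 fold change 8.78, SE 0.17, adjusted p = 5.88e-12). Ins2 stood at 961, 1104, 741 and 869 CPM in the Ngn3-high libraries, against 0.627, 1.95, 1.7 and 1.14 CPM in the Ngn3-low libraries (log2 fold change 9.40, SE 0.18, adjusted p = 4.73e-12). Reads of these near-identical copies could be split between them by the counting, but both differed about alike, and the low libraries held under 2 CPM of each.

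Glucagon, the alpha cell hormone, was the hormone gene whose level in the high gate differed most between the sides. Gcg (chromosome 2, 62474530 to 62483650) stood at 2241, 2323, 217 and 258 CPM in the Ngn3-high libraries, against 28.1, 139, 6.48 and 18.9 CPM in the Ngn3-low libraries (log2 fold change 4.54, SE 0.44, adjusted p = 2.39e-06). In both gates the dorsal libraries were the higher ones, and dorsal Ngn3-low library 2 stood well above the other 3 low libraries. The gate difference was 4.78 in dorsal and 4.21 in ventral cells, and the difference between these did not pass (adjusted p = 1). Without dorsal Ngn3-low library 2 the gate difference over both sides was 5.11 (adjusted p = 1.49e-06). The granule list summed to 150.5, 187, 157.5 and 127 CPM in the low libraries, also highest in dorsal library 2. Of the granule genes named in this report, Chga (4.64, 10.7, 6.09 and 5.21 CPM), Pcsk1, Pcsk2, Scg3 and Pam were highest there too. Chgb (6.27, 9.9, 16.1 and 10.1 CPM), Cpe and Slc30a8 were highest in ventral library 1. Ghrl, which encodes ghrelin, stood at 213, 242, 283 and 321 CPM in the Ngn3-high libraries, against 0.439, 0.378, 1.31 and 0.12 CPM in the Ngn3-low libraries (log2 fold change 8.89, SE 0.21, adjusted p = 2.03e-11). Sst, the delta cell hormone somatostatin, stood at 48.7, 47.8, 85 and 80.4 CPM in the Ngn3-high libraries, against 0, 0.189, 0.131 and 0.18 CPM in the Ngn3-low libraries (log2 fold change 8.94, SE 0.18, adjusted p = 7.26e-12). Ventral high libraries were the higher ones for both, the reverse of Gcg.

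Hormones usually counted as gut products were high too. Gast, which encodes gastrin, stood at 121, 127, 119 and 128 CPM in the Ngn3-high libraries, against 0.251, 0.126, 0.393 and 0.12 CPM in the Ngn3-low libraries (log2 fold change 9.09, SE 0.14, adjusted p = 1.76e-12), an even level on both sides. Gip, made by K cells of the gut, stood at 47.1, 58, 60.5 and 74.9 CPM in the Ngn3-high libraries, against 0.313, 0.567, 0.393 and 0.419 CPM in the Ngn3-low libraries, and Pyy, peptide YY, at 1009, 1094, 1202 and 1160 CPM in the Ngn3-high libraries, against 4.26, 11.8, 5.24 and 3.89 CPM in the Ngn3-low libraries. All 3 were higher in every Ngn3-high library. Ppy, pancreatic polypeptide, had log2 fold change 5.83, SE 0.29, adjusted p = 7.39e-09. Compared per kilobase of the gene length in the deposited table, the order of levels in the Ngn3-high libraries was Pyy (1924 ± 129 RPKM), Ins2 (1510 ± 264), Iapp (658 ± 95.5), Ghrl (479.6 ± 81.3), Ins1 (477 ± 65.5), Gast (257 ± 9.79), Cck (169 ± 18.7), Sst (104 ± 30.9), Gip (88.1 ± 16) and Ppy (58 ± 12.5), as mean ± SD over 4 libraries. Ghrl and Ins1 lay within their spread of each other, as did Sst and Gip. Gcg has no single place in this order: at 1989 and 2061 RPKM it was above Pyy in the dorsal libraries, and at 189 and 224 RPKM below Gast in the ventral ones. Ucn3, a gene of mature beta cells, was at 1.99 ± 0.555 RPKM.

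The stretch before the start of these hormone genes is shown because the NEUROD and NEUROG factors bind E-boxes. The 250 bases before each RefSeq start (GRCm38.p6) were searched on both strands for CAGATG, an E-box of this kind. It lay in 7 of the 15 hormone genes with an entry (46.7%), against 12.3% of the 11978 tested genes with one. It lay in 0 of 13 granule and 0 of 15 exocytosis promoters, and in 3 of 7 (42.9%) of the endothelial and of the immune markers, which were lower. In the endocrine cascade list it lay in 3 of 17 promoters (17.6%). Among genes past the test against 2-fold it lay in 15.2% of the higher and 14.2% of the lower ones. Ins2 had no entry. Ins1 (chr19:52264047-52264296, forward strand) and Gcg (chr2:62483654-62483903, reverse strand) are printed 5′ to 3′ with the E-box on either strand in capitals, 84 bases before the start in Ins1 and 139 and 83 bases before it in Gcg.
Ins1: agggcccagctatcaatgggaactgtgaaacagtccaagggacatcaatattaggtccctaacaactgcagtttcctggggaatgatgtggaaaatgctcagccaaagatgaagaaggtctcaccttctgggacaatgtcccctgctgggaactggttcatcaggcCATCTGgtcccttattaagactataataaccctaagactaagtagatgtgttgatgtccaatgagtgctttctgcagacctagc
Gcg: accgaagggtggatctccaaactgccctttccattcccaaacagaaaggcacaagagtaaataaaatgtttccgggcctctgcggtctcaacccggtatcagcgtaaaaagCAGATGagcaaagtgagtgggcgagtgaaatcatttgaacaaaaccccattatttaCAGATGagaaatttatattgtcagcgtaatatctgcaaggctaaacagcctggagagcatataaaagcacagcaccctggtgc
A match describes the letters of this window only. In the endocrine cascade list TAATTA, a homeodomain site, lay in 2 of 17 promoters (11.8%), against 3.29% of all and 3 of 15 (20%) in the duct list, and CACNAG, the N-box bound by HES factors, in 7 of 17 (41.2%), against 39.8% of all.

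The machinery of regulated secretion rose with the hormones. All 16 granule genes passed against 2-fold, with a median of 7.16. Chgb, chromogranin B, stood at 6580, 7181, 10130 and 10970 CPM in the Ngn3-high libraries, against 6.27, 9.9, 16.1 and 10.1 CPM in the Ngn3-low libraries (log2 fold change 9.69, SE 0.18, adjusted p = 3.86e-12). It was the gene with the largest fold change among those named by level and size, and its dorsal libraries were below the ventral ones in the high gate. Pcsk1 (log2 fold change 7.37, SE 0.12, adjusted p = 1.77e-12) and Pcsk2 (log2 fold change 8.27, SE 0.23, adjusted p = 5.35e-11), the convertases that cut prohormones, Cpe, which trims the cut ends (log2 fold change 6.41, SE 0.15, adjusted p = 2e-11), Scg3, a granule sorting protein (log2 fold change 7.98, SE 0.21, adjusted p = 3.47e-11), and Slc30a8, the granule zinc transporter (log2 fold change 8.10, SE 0.14, adjusted p = 2.6e-12), were all higher. Pam, which amidates peptides, had 4.11 and kept 72.5, 82.3, 68.9 and 58.8 CPM in Ngn3-low.

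Of 23 tested genes of exocytosis, 21 were higher, 19 of them against 2-fold, 1 was lower and 1 did not pass, with a median of 3.37. Unc13a, a vesicle priming factor (log2 fold change 6.46, SE 0.20, adjusted p = 1.14e-10), Cadps, a priming factor of dense-core granules (log2 fold change 6.38, SE 0.10, adjusted p = 1.68e-12), Snap25, a SNARE protein of the plasma membrane (log2 fold change 6.18, SE 0.22, adjusted p = 3.68e-10), and Syt13 (log2 fold change 5.71, SE 0.17, adjusted p = 9.41e-11) had the largest increases. The exception was Cadps2, the second gene of the Cadps family, which was lower. Cadps stood at 321, 340, 347 and 372 CPM in the Ngn3-high libraries, against 3.26, 4.98, 4.06 and 4.19 CPM in the Ngn3-low libraries. Cadps2 stood at 3.16, 3.33, 2.46 and 2.13 CPM in the Ngn3-high libraries, against 18.6, 17.7, 12.6 and 14.4 CPM in the Ngn3-low libraries (log2 fold change -2.52, SE 0.12, adjusted p = 4.83e-09). The paralogs moved in opposite directions with no overlap between the gates. The general fusion factors Napa and Nsf had small differences of 1.05 and 0.72.

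Genes of glucose sensing and electrical activity were mostly higher. Of 20, 18 were higher, 16 against 2-fold, 1 was lower and 1 did not pass, with a median of 4.15. Abcc8 (log2 fold change 4.18, SE 0.09, adjusted p = 1.29e-11) and Kcnj11 (log2 fold change 3.09, SE 0.07, adjusted p = 1.62e-11), the subunits of the ATP-sensitive potassium channel, were higher together. G6pc2, a glucose-6-phosphatase of islets, had log2 fold change 8.49, SE 0.26, adjusted p = 1.39e-10. The receptor genes Ffar1 (log2 fold change 8.64, SE 0.24, adjusted p = 5.26e-11), Glp1r (log2 fold change 7.77, SE 0.31, adjusted p = 9.67e-10) and Gipr (log2 fold change 7.75, SE 0.20, adjusted p = 3.24e-11) were at or under 0.655 CPM in every low library. Slc2a2, the glucose transporter GLUT2 of mature beta cells, went the other way, at 77.5, 73.4, 61.9 and 59.1 CPM in the Ngn3-high libraries, against 112, 104, 109.5 and 128 CPM in the Ngn3-low libraries (log2 fold change -0.74, SE 0.09, adjusted p = 2.1e-05). Ucp2 did not pass (0.06, adjusted p = 0.436).

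Neuronal genes of the cytoskeleton and of adhesion were also mainly higher: 18 of 22, 16 of them against 2-fold, with 3 lower, 1 not passed and a median of 2.80. Celsr3, a cadherin of planar polarity, stood at 281, 261, 310 and 248 CPM in the Ngn3-high libraries, against 1.94, 1.58, 2.16 and 1.8 CPM in the Ngn3-low libraries (log2 fold change 7.20, SE 0.11, adjusted p = 1.76e-12). Syp, synaptophysin of small vesicles (log2 fold change 6.48, SE 0.10, adjusted p = 1.76e-12), Nefm, a neurofilament (log2 fold change 6.26, SE 0.10, adjusted p = 1.92e-12), Tubb3, a neuronal tubulin (log2 fold change 5.79, SE 0.11, adjusted p = 4.97e-12), and Map1b (log2 fold change 5.24, SE 0.10, adjusted p = 4.85e-12) rose with it. The lower members were Stmn2 (log2 fold change -3.61, SE 0.42, adjusted p = 1.03e-05), Dpysl3 (log2 fold change -1.51, SE 0.22, adjusted p = 7.12e-05) and Gap43 (log2 fold change -1.28, SE 0.30, adjusted p = 0.00234). These 3 had higher values in library 1 than in library 2 of the low gate on each side, as the endothelial and mesenchyme sums did. Stmn2 was at 0.169, 0.476, 0.154 and 0.188 CPM in Ngn3-high libraries. Dcx, doublecortin, barely differed, with 123, 136, 151 and 206 CPM in the Ngn3-high libraries, against 102, 123, 94.5 and 149.9 CPM in the Ngn3-low libraries (log2 fold change 0.38, SE 0.15, adjusted p = 0.0343), and its groups overlapped.

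**Figure D3:**
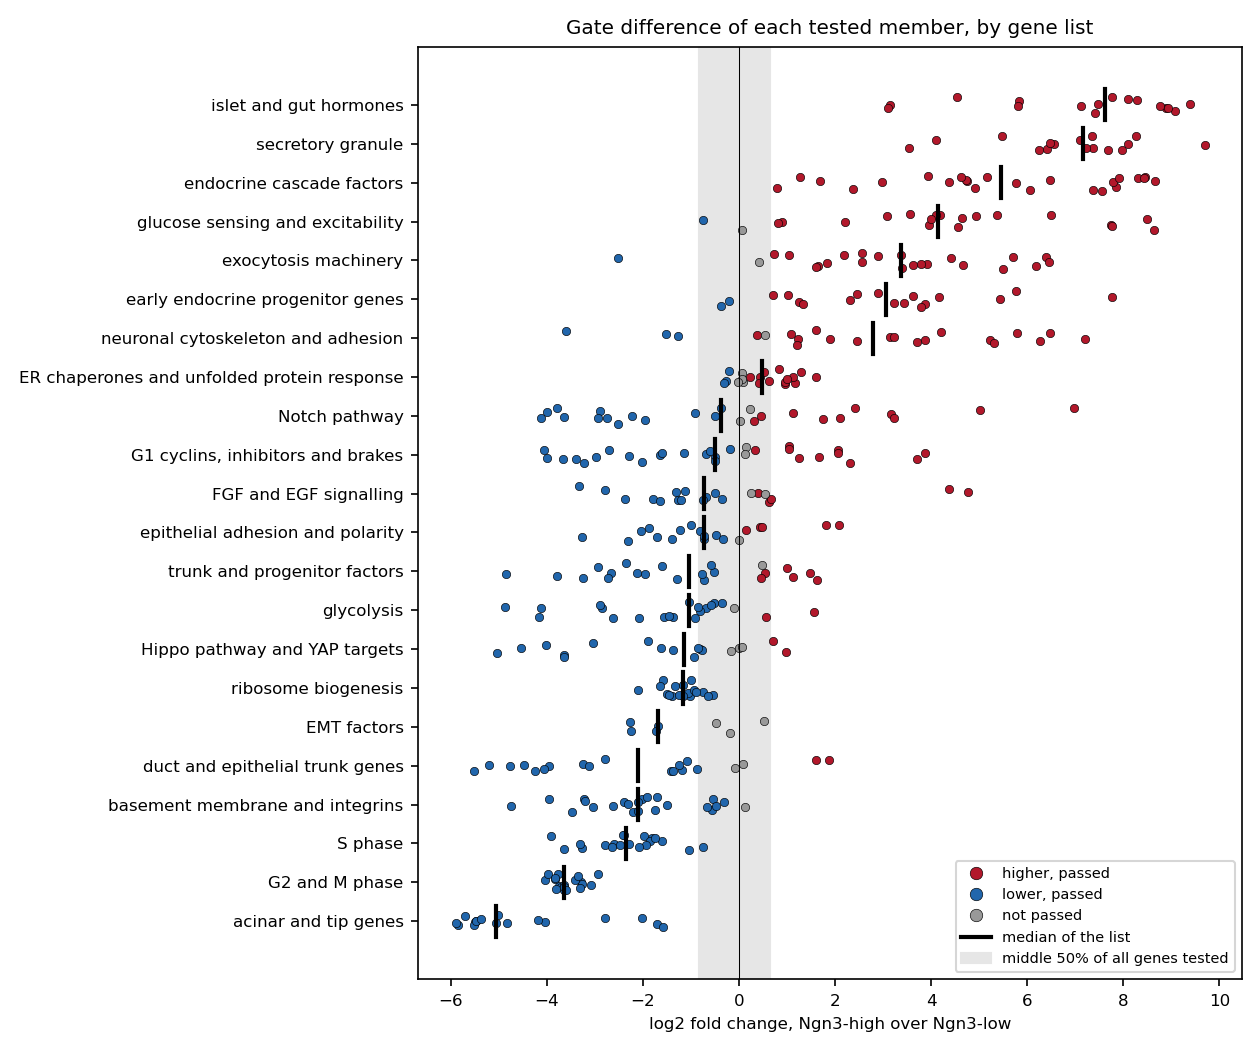
Log2 fold change, Ngn3-high over Ngn3-low, of every tested member of 22 gene lists; points are genes, coloured by whether they passed and in which direction, black bars are list medians and the grey band is the middle 50% of all genes tested (-0.82 to 0.65). Hormone, granule and cascade genes lie at the right end, with medians of 7.62, 7.16 and 5.46, and S phase, G2 and M phase and acinar genes at the left end, with medians of -2.34, -3.64 and -5.05.

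Factors of trunk progenitors were divided, with 15 of 22 lower, 11 of them against 2-fold, 6 higher, 3 against 2-fold, and a median of -1.03. Sox9 (chromosome 11, 112782224 to 112787760), which maintains progenitors and is needed for Neurog3 itself, stood at 78.9, 75.4, 79.8 and 71.2 CPM in the Ngn3-high libraries, against 486, 535, 463 and 529.5 CPM in the Ngn3-low libraries (log2 fold change -2.72, SE 0.07, adjusted p = 2.61e-11). Onecut1, which acts upstream of Neurog3, stood at 5.57, 3.62, 2.54 and 2.82 CPM in the Ngn3-high libraries, against 110.1, 109, 99.1 and 122 CPM in the Ngn3-low libraries (log2 fold change -4.86, SE 0.17, adjusted p = 3.1e-10). Both were lower in all 4 high libraries, and Onecut1 was down to a few CPM, whereas Sox9 kept about 75 CPM. Id3 (log2 fold change -3.25, SE 0.14, adjusted p = 2.52e-09) and Nr5a2 (log2 fold change -2.94, SE 0.09, adjusted p = 1.1e-10) were lower, as were Hhex (-1.95), Tcf7l2 (-2.12), Gata4 (-2.67) and Mecom (-2.35).

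The higher members included factors that islet cells keep. Pdx1, needed for the whole pancreas and for beta cells, stood at 464, 484, 482 and 529 CPM in the Ngn3-high libraries, against 168, 154, 147 and 162 CPM in the Ngn3-low libraries (log2 fold change 1.64, SE 0.06, adjusted p = 8.05e-10). Foxa2 stood at 201, 198, 222 and 219 CPM in the Ngn3-high libraries, against 71.5, 77.7, 73 and 77.3 CPM in the Ngn3-low libraries (log2 fold change 1.49, SE 0.05, adjusted p = 4.47e-10). Its relative Foxa1 was lower (log2 fold change -3.78, SE 0.81, adjusted p = 0.00122) and uneven in the low gate, at 0.752, 8.32, 1.9 and 3.59 CPM. Onecut2 did not pass (0.47, adjusted p = 0.375). Dorsal Ngn3-low library 1 stood at 1.75 CPM and the other 3 low libraries at 24.7, 14.6 and 14.6 CPM. Dorsal Ngn3-low library 1 had the lowest liver marker sum of the low gate as well, and Foxa1 without that library was lower by 4.27 on the log2 scale (adjusted p = 3.06e-05). The part of that RNA in Onecut2 was not tested.

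Duct genes were lower in the main: 16 of 20, 13 of them against 2-fold, with 2 higher, 2 not passed and a median of -2.1. Spp1, osteopontin, an abundant product of the trunk, stood at 132, 133, 76.5 and 96.3 CPM in the Ngn3-high libraries, against 1651, 2040, 1533 and 1964 CPM in the Ngn3-low libraries (log2 fold change -4.07, SE 0.15, adjusted p = 4.45e-10). Cldn10, a tight junction claudin (log2 fold change -5.19, SE 0.18, adjusted p = 2.73e-10), Car2, a carbonic anhydrase (log2 fold change -5.51, SE 0.36, adjusted p = 7.29e-08), Vtcn1 (log2 fold change -4.77, SE 0.28, adjusted p = 2.49e-08) and Ehf, an epithelial ETS factor (log2 fold change -4.48, SE 0.14, adjusted p = 1.56e-10), fell most. Cftr, the chloride channel of ducts, was low throughout, at 0.253, 0.381, 0.922 and 0.815 CPM in the Ngn3-high libraries, against 1.25, 7.57, 4.19 and 6.41 CPM in the Ngn3-low libraries (log2 fold change -3.11, SE 0.54, adjusted p = 0.000278). Keratins diverged. Krt8 and Krt19 did not pass (0.09 and -0.08, adjusted p = 0.259 and 0.459), Krt8 standing at 819.6, 803, 795 and 854 CPM in the Ngn3-high libraries, against 815, 861, 727 and 689.8 CPM in the Ngn3-low libraries. Krt18, the usual partner of Krt8, was lower (log2 fold change -1.42, SE 0.05, adjusted p = 5.77e-10), and Krt7, listed with the early progenitor genes, was higher (log2 fold change 1.33, SE 0.05, adjusted p = 7.74e-10). Tm4sf4 (log2 fold change 1.88, SE 0.08, adjusted p = 1.74e-09), a tetraspanin-like membrane protein, and Anxa4 (log2 fold change 1.60, SE 0.06, adjusted p = 3.35e-10), a calcium-dependent membrane binder, were higher.

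Acinar genes were the lowest list of the epithelium. All 17 tested members were lower, 16 against 2-fold, with a median of -5.05, and 8 of 25 were too low to test. In most fits with 1 library left out, 1 listed gene passed as higher. Ptf1a, the factor that directs acinar cells, stood at 0.928, 0.857, 0.0769 and 0.251 CPM in the Ngn3-high libraries, against 38.2, 25.4, 30 and 21.4 CPM in the Ngn3-low libraries (log2 fold change -5.70, SE 0.31, adjusted p = 1.44e-08). Cpa1, carboxypeptidase A1 of the tip, stood at 37.1, 40.3, 12.5 and 15.3 CPM in the Ngn3-high libraries, against 1309, 1119, 1023 and 872 CPM in the Ngn3-low libraries (log2 fold change -5.47, SE 0.21, adjusted p = 7.68e-10). In both, ventral high libraries lay below dorsal ones. Pnliprp2 (log2 fold change -5.90, SE 0.38, adjusted p = 5.64e-08) and Pnliprp1 (log2 fold change -5.85, SE 0.30, adjusted p = 7.7e-09), genes of the pancreatic lipase family, fell by similar amounts. Summed over the list the level was 94.8 to 232 CPM in the Ngn3-high libraries, against 3662 to 5135 CPM in the Ngn3-low libraries. Bhlha15 (Mist1), a factor of secretory cells, and Clps, colipase, fell less, by 2.02 and 1.71 on the log2 scale.

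Notch is the signal by which cells with much NEUROG3 keep their neighbours from switching it on: ligands of the Delta and Jagged families bind Notch receptors, and the receptor's inner part joins RBPJ to switch on Hes genes, which repress Neurog3. Receptors and Hes and Hey targets moved together, and ligands and modifiers did not. Of 25 tested genes, 13 were lower, 10 against 2-fold, 10 were higher, 7 against 2-fold, and 2 did not pass, with a median of -0.37, so the share of higher genes was close to the 39.0% of all genes. All 4 receptors were lower: Notch1 (log2 fold change -2.22, SE 0.08, adjusted p = 3.34e-10), Notch2 (log2 fold change -3.78, SE 0.16, adjusted p = 1.61e-09), Notch3 (log2 fold change -1.95, SE 0.08, adjusted p = 1.13e-09) and Notch4 (log2 fold change -3.99, SE 0.37, adjusted p = 1.37e-06). Notch2 stood at 45, 50.4, 27 and 27.4 CPM in the Ngn3-high libraries, against 465, 525, 454 and 556 CPM in the Ngn3-low libraries. Notch4, an endothelial receptor, stood at 28.3, 14.4, 29.8 and 11.6 CPM in Ngn3-low and followed the endothelial sums, library 1 above library 2 on each side.

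Hes and Hey targets and Nrarp were lower with the receptors. Hes1 (chromosome 16, 30064384 to 30067796) stood at 6.75, 8.57, 4.15 and 5.39 CPM in the Ngn3-high libraries, against 89.96, 116, 88.8 and 130.2 CPM in the Ngn3-low libraries (log2 fold change -4.12, SE 0.19, adjusted p = 3.37e-09). Nrarp, a feedback inhibitor, stood at 4.81, 6.28, 5.23 and 3.82 CPM in the Ngn3-high libraries, against 66, 59.5, 63.8 and 56.4 CPM in the Ngn3-low libraries (log2 fold change -3.64, SE 0.12, adjusted p = 1.6e-10). Heyl (log2 fold change -2.93, SE 0.16, adjusted p = 1.68e-08) and Hey1 (log2 fold change -0.92, SE 0.12, adjusted p = 3.52e-05) were lower too, while Hes5 and Hey2 were too low to test. In Ngn3-low libraries, with 16 libraries scaled together, Heyl stood at 18.3, 17.2, 19.6 and 13.9 CPM and Hey1 at 12.1, 10.2, 13.7 and 11.6 CPM. Heyl, Hey1 and Nrarp thus had low library 1 above library 2 on each side, as Notch4 did, and Hes1 had the reverse order. The part of vessel cells in Heyl, Hey1 and Nrarp was not tested. All 4 high libraries lay below all 4 low libraries for Hes1, Nrarp, Heyl and Hey1. Dtx1 went the other way and Dtx4 did not. With 16 libraries scaled together Dtx1 stood at 19.2, 16.7, 21.9 and 17.8 CPM in Ngn3-high libraries. In Ngn3-low libraries it stood at 2.04, 1.88, 2.33 and 2.31 CPM. Hes6, which counteracts HES1 and is listed with the endocrine cascade, was higher (log2 fold change 1.70, SE 0.07, adjusted p = 1.24e-09).

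Ligands did not move together. Dll1, the Delta ligand of endocrine progenitors and a target of NEUROG3, was slightly lower, at 62.7, 62, 68.7 and 67.8 CPM in the Ngn3-high libraries, against 73.4, 95.5, 81.9 and 86.3 CPM in the Ngn3-low libraries (log2 fold change -0.37, SE 0.08, adjusted p = 0.00113), with no overlap. Dll4, the other activating Delta ligand, was higher, at 92.9, 102, 112 and 118 CPM in the Ngn3-high libraries, against 26.1, 21.7, 31.1 and 20.01 CPM in the Ngn3-low libraries (log2 fold change 2.1, SE 0.12, adjusted p = 1.84e-08). Dll3, a divergent Delta protein that does not activate Notch on neighbouring cells, stood at 40.03, 41.3, 40.04 and 45.9 CPM in the Ngn3-high libraries, against 0.752, 1.14, 1.51 and 1.74 CPM in the Ngn3-low libraries (log2 fold change 5.02, SE 0.15, adjusted p = 9.66e-11). Dner, a Delta-like transmembrane protein of neurons, had the largest increase of the pathway (log2 fold change 6.97, SE 0.16, adjusted p = 1.45e-11). Jag1 was lower (log2 fold change -2.75, SE 0.07, adjusted p = 2.66e-11) and Jag2 higher (log2 fold change 1.12, SE 0.19, adjusted p = 0.000242). Per kilobase, Dll4 (27.1 ± 2.6 RPKM), Dll1 (17.4 ± 0.748), Dll3 (15.3 ± 0.936) and Dner (12.6 ± 1.28) were the highest of these 6 in Ngn3-high libraries, and Jag1 was at 2.18 ± 0.189 RPKM there.

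Modifiers were divided as well. Mfng, a fringe enzyme that adds sugars to Notch, was higher (log2 fold change 3.24, SE 0.16, adjusted p = 5.84e-09), Lfng was slightly lower (-0.51) and Rfng did not pass (0.23, adjusted p = 0.132). Numbl, a Notch antagonist, was higher (log2 fold change 2.43, SE 0.08, adjusted p = 2.31e-10), and its paralog Numb did not pass (0.03, adjusted p = 0.65). Of the coactivators, Maml3 was higher (1.75) and Maml2 lower (-2.51), and Rbpj itself had a small difference of 0.31 (adjusted p = 0.00176).

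**Figure D4:**
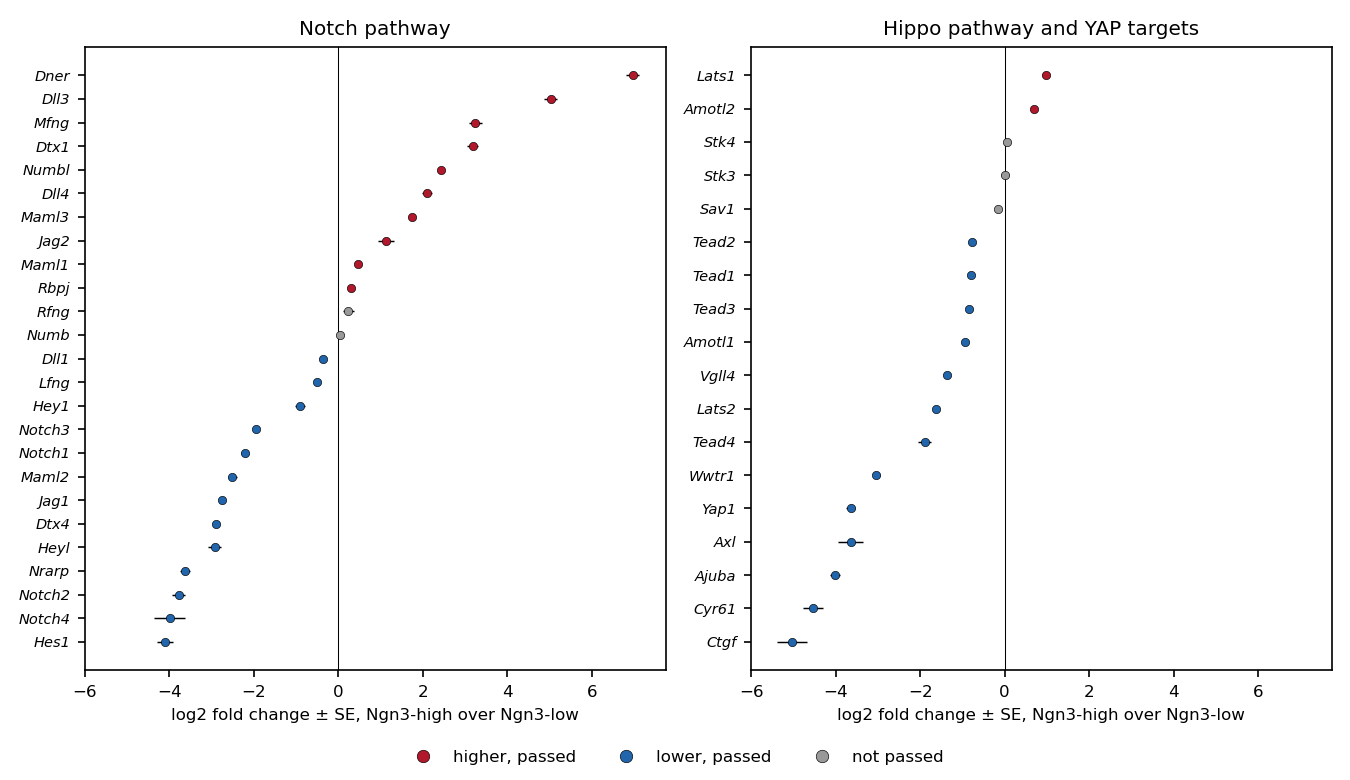
Log2 fold change ± SE, Ngn3-high over Ngn3-low, of each tested gene of the Notch list (left) and the Hippo list (right), ordered by value; colours give the direction of genes that passed. The 4 Notch receptors, Hes1 and Nrarp lie between -4.12 and -1.95, Dner and Dll3 at 6.97 and 5.02, and Yap1, Ctgf and Cyr61 at -3.65, -5.03 and -4.54.

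YAP1 and TAZ (gene Wwtr1) are coactivators that the Hippo kinases hold out of the nucleus; with TEAD factors they drive growth genes of progenitors. Of 18 tested genes of this list 13 were lower, 9 against 2-fold, 2 higher and 3 not passed, with a median of -1.15. Yap1 (chromosome 9, 7931999 to 8004596) stood at 22.6, 20.2, 17.6 and 13.7 CPM in the Ngn3-high libraries, against 235, 229.5, 224 and 236 CPM in the Ngn3-low libraries (log2 fold change -3.65, SE 0.10, adjusted p = 7.65e-11). Wwtr1 was lower with it (log2 fold change -3.03, SE 0.08, adjusted p = 5.64e-11). Ctgf and Cyr61, known targets, fell furthest of the list. Ctgf stood at 1.48, 2.76, 0.461 and 0.439 CPM in the Ngn3-high libraries, against 31.9, 37.1, 53.7 and 39.8 CPM in the Ngn3-low libraries (log2 fold change -5.03, SE 0.35, adjusted p = 1.11e-07). Cyr61 stood at 19.1, 27.3, 8.76 and 11.2 CPM in the Ngn3-high libraries, against 311, 409, 350.2 and 400 CPM in the Ngn3-low libraries (log2 fold change -4.54, SE 0.24, adjusted p = 9.72e-09). The groups were far apart for both, and ventral high libraries were below dorsal ones. Ajuba (log2 fold change -4.01, SE 0.12, adjusted p = 1.05e-10), a LIM protein that binds LATS kinases, and Axl (log2 fold change -3.65, SE 0.29, adjusted p = 4.06e-07), a receptor kinase also found in vessels, were lower too.

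The kinase arm was divided. Lats1 was higher, at 305, 336, 311 and 365 CPM in the Ngn3-high libraries, against 159, 177, 147 and 188 CPM in the Ngn3-low libraries (log2 fold change 0.97, SE 0.09, adjusted p = 9.65e-07), and Lats2 lower (log2 fold change -1.62, SE 0.08, adjusted p = 4.13e-09). Stk3, Stk4 and Sav1, the upstream kinases and their scaffold, did not pass (0.01, 0.06 and -0.16, adjusted p = 0.928, 0.346 and 0.0859). Amotl2, which binds YAP1, is itself a known target and is also listed with the early progenitor genes, was higher (log2 fold change 0.70, SE 0.07, adjusted p = 2.7e-06), and Amotl1 lower (-0.93). Tead1 to Tead4 were lower by 0.77 to 1.89 on the log2 scale.

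Promoters of this list are shown for their TEAD motif. GGAATG on either strand lay within 250 bases before the start in 9 of 14 Hippo genes with an entry (64.3%), against 13.1% of all tested genes and 5 of 15 hormone promoters (33.3%). Cyr61 (chr3:145649986-145650235, reverse strand) held 1 match, 103 bases before the start, and Ankrd1 (chr19:36119845-36120094, reverse strand), another known target, held 2, at 210 and 123 bases; matches are in capitals. Ankrd1 had no read in the Ngn3-high libraries and 0.501, 0.82, 0.524 and 0.18 CPM in the low ones, too little to test.
Cyr61: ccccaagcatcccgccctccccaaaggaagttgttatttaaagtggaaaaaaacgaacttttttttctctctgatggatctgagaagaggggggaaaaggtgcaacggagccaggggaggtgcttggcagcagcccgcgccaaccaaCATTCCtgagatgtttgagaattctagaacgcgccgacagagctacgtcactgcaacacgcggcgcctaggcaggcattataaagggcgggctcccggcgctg
Ankrd1: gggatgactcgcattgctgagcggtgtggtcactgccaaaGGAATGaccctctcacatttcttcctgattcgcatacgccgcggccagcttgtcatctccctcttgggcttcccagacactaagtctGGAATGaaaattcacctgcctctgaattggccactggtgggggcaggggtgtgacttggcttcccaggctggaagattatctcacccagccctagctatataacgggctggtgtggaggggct

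Cell division genes were lower throughout. All 20 S phase genes (18 against 2-fold, median -2.34) and all 19 G2 and M phase genes (19 against 2-fold, median -3.64) were lower. Mki67, present in cycling cells, stood at 51.1, 51.8, 43.6 and 43.4 CPM in the Ngn3-high libraries, against 700.2, 676, 599 and 693 CPM in the Ngn3-low libraries (log2 fold change -3.82, SE 0.07, adjusted p = 3.07e-12). Cdk1, the kinase of mitotic entry, stood at 8.48, 10.8, 8.45 and 8.14 CPM in the Ngn3-high libraries, against 145, 140.2, 138 and 135 CPM in the Ngn3-low libraries (log2 fold change -3.98, SE 0.08, adjusted p = 4.58e-12). Aurkb (log2 fold change -4.03, SE 0.10, adjusted p = 3.52e-11), Top2a (log2 fold change -3.84, SE 0.10, adjusted p = 3.01e-11) and Bub1 (log2 fold change -3.83, SE 0.09, adjusted p = 1.63e-11), which act in chromosome segregation, were alike. The 4 high libraries were even for Mki67 and Cdk1, with no overlap with the low gate. In S phase Uhrf1 (log2 fold change -3.92, SE 0.07, adjusted p = 2.03e-12), Cdc6 (log2 fold change -3.65, SE 0.08, adjusted p = 7.87e-12), Rrm2 (log2 fold change -3.31, SE 0.06, adjusted p = 4.28e-12) and Gins2 (log2 fold change -3.26, SE 0.08, adjusted p = 3.04e-11) fell most, and Slbp (-0.74) and Mcm2 (-1.04) least.

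Promoters of mitotic genes are shown for the pair of motifs they often hold. CCAAT, bound by NF-Y, lay in 14 of the 16 G2 and M phase promoters with an entry (87.5%), against 40% of all tested genes, and TTTGAA, the cell cycle homology region bound by the DREAM complex, in 7 (43.8%), against 12.7%. CCAAT was as frequent in the chaperone list described below, with 15 of 17 (88.2%), and lay in 11 of 17 S phase promoters (64.7%). In the S phase list an E2F site (TTTCCCGC or TTTGGCGC) lay in 4 of 17 promoters (23.5%), against 2.67% of all and 3 of 14 (21.4%) in the ribosome biogenesis list. Ccnb2 (chr9:70421555-70421804, reverse strand) held 3 CCAAT boxes and 1 TTTGAA, and Cdc20 (chr4:118437344-118437593, reverse strand) 2 CCAAT boxes with TTTGAA between them, all in capitals.
Ccnb2: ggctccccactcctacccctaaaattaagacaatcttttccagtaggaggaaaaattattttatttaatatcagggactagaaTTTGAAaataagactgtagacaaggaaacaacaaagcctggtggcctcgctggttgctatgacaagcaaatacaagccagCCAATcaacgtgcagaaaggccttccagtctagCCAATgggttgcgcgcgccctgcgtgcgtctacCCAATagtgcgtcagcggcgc
Cdc20: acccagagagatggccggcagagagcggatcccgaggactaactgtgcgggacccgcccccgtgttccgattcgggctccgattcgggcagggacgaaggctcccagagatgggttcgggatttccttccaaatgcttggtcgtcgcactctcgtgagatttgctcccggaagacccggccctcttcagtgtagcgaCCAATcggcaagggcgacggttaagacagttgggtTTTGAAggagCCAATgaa

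Regulators of the G1 phase were mixed: of 29 tested, 17 were lower, 12 against 2-fold, 10 higher, 7 against 2-fold, and 2 not passed, with a median of -0.50. Ccnd1, cyclin D1, stood at 40.2, 41.7, 39.4 and 34.7 CPM in the Ngn3-high libraries, against 412, 398, 330.3 and 324 CPM in the Ngn3-low libraries (log2 fold change -3.23, SE 0.06, adjusted p = 4.67e-12). Ccnd2 was lower (-2.30), and Ccnd3 only slightly (-0.50). Among the inhibitors, Cdkn1a (p21) stood at 449, 412, 518 and 519 CPM in the Ngn3-high libraries, against 182, 199.8, 211 and 203 CPM in the Ngn3-low libraries (log2 fold change 1.25, SE 0.06, adjusted p = 3.95e-09). Cdkn1b (p27) was higher (log2 fold change 1.05, SE 0.06, adjusted p = 2e-08), as were Cdkn2b (log2 fold change 3.71, SE 0.34, adjusted p = 1.18e-06) and Cdkn2d (1.05). Cdkn1c (p57), another inhibitor of the family, was lower, at 135, 126, 179 and 187 CPM in the Ngn3-high libraries, against 275, 236, 274 and 211 CPM in the Ngn3-low libraries (log2 fold change -0.69, SE 0.12, adjusted p = 0.000265). Its values did not overlap, although the ventral high libraries came near the low ones. Cdkn2c was lower as well (-2.96).

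The Myc family split in the same way. Myc stood at 4.01, 3.24, 3.23 and 3.76 CPM in the Ngn3-high libraries, against 67.9, 58.4, 66.4 and 50.1 CPM in the Ngn3-low libraries (log2 fold change -4.07, SE 0.12, adjusted p = 1.3e-10) and Mycn had log2 fold change -3.39, SE 0.11, adjusted p = 2.03e-10, whereas Mycl stood at 129, 136, 137 and 152 CPM in the Ngn3-high libraries, against 31, 40.03, 29.3 and 32.6 CPM in the Ngn3-low libraries (log2 fold change 2.06, SE 0.10, adjusted p = 3.7e-09). The brakes Btg2 (log2 fold change 2.31, SE 0.15, adjusted p = 8.55e-08) and Gadd45g (log2 fold change 2.06, SE 0.07, adjusted p = 3.15e-10) were higher, and so was Rb1 (log2 fold change 1.67, SE 0.08, adjusted p = 5.66e-09), while its relative Rbl1, high in cycling cells, was lower (-2.02). E2f8 (log2 fold change -4.00, SE 0.09, adjusted p = 1.29e-11), a repressive E2F, was lower and E2f1 did not pass (0.13, adjusted p = 0.232). Genes of ribosome biogenesis were all lower, 18 of 18, 10 against 2-fold, with a median of -1.16. Dkc1, which modifies ribosomal RNA, stood at 22.6, 21.8, 22.7 and 24 CPM in the Ngn3-high libraries, against 103, 95.8, 98.3 and 95.1 CPM in the Ngn3-low libraries (log2 fold change -2.1, SE 0.06, adjusted p = 5.96e-11). Polr1b, a subunit of RNA polymerase I (-1.64), Fbl (-1.58) and Nop56 (-1.50), both of the nucleolus, followed.

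Genes of epithelial junctions and polarity fell moderately. Of 19 tested, 13 were lower, 7 against 2-fold, 5 higher, 2 against 2-fold, and 1 did not pass, with a median of -0.73. Cdh1, E-cadherin, stood at 634, 645, 654 and 678 CPM in the Ngn3-high libraries, against 1317, 1446, 1165 and 1313 CPM in the Ngn3-low libraries (log2 fold change -1.0, SE 0.07, adjusted p = 1.1e-07). The gates did not overlap. Cdh2, N-cadherin, was higher (log2 fold change 2.09, SE 0.08, adjusted p = 6.76e-10), with 69.8, 62.8, 65.9 and 62.8 CPM in Ngn3-high against 17.1, 14.2, 16.1 and 14.1 CPM in Ngn3-low. The claudins diverged, with Cldn3 lower (log2 fold change -2.31, SE 0.07, adjusted p = 1.29e-10) and Cldn4 higher (log2 fold change 1.81, SE 0.10, adjusted p = 1.53e-08). Grhl2, a factor that maintains epithelial junctions, fell most (log2 fold change -3.27, SE 0.09, adjusted p = 5.26e-11), followed by Tjp3 (-2.03), while Tjp1 (ZO-1) did not pass (0.00, adjusted p = 0.966).

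Genes linked to the epithelial to mesenchymal transition gave no call of higher. Of 9 listed, 7 were tested, 4 were lower and 3 did not pass, with a median of -1.69. Without ventral Ngn3-low library 2, 7 of the listed factors passed as lower. Snai2, a repressor of E-cadherin, stood at 2.32, 3.52, 3.77 and 3.07 CPM in the Ngn3-high libraries, against 4.45, 4.22, 5.37 and 3.35 CPM in the Ngn3-low libraries (log2 fold change -0.48, SE 0.21, adjusted p = 0.0579). The groups overlapped, and it passed as lower under 4 of the alternatives, with adjusted p from 0.0146 to 0.0497. Snai1 (0.53, adjusted p = 0.166) and Zeb1 (-0.18, adjusted p = 0.56) did not pass, and Snai3 (log2 fold change -2.27, SE 0.50, adjusted p = 0.00142), Zeb2 (log2 fold change -2.25, SE 0.12, adjusted p = 8.43e-09), Vim (log2 fold change -1.72, SE 0.14, adjusted p = 4.81e-07) and Fn1 (log2 fold change -1.69, SE 0.06, adjusted p = 4.88e-10) were lower. Vim, vimentin, and Zeb2 are expressed in mesenchyme and vessels too, whose summed markers were lower in Ngn3-high, and the part of those cells was not tested.

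Basement membrane and integrin genes were nearly all lower, 22 of 23, 16 against 2-fold, with a median of -2.1. Itgb4, the integrin of hemidesmosomes, stood at 3.84, 4.67, 1.69 and 1.88 CPM in the Ngn3-high libraries, against 76, 80.8, 82.3 and 80.6 CPM in the Ngn3-low libraries (log2 fold change -4.75, SE 0.19, adjusted p = 1.03e-09). Itga5 (log2 fold change -3.23, SE 0.17, adjusted p = 8.56e-09), Hspg2, perlecan (log2 fold change -3.47, SE 0.12, adjusted p = 2.94e-10), and the laminin subunit Lamb1 (log2 fold change -2.31, SE 0.06, adjusted p = 2.54e-11) were lower. Nid2 (log2 fold change -3.95, SE 0.41, adjusted p = 4.17e-06) and Col4a1 (log2 fold change -1.49, SE 0.17, adjusted p = 1.02e-05) varied like the endothelial sums in the low gate: Nid2 stood at 87.3, 40.5, 98.7 and 32.6 CPM and Col4a1 at 738, 506, 738 and 401 CPM there, library 1 above library 2 on each side. Hspg2 (880.3, 719.9, 900 and 659 CPM) and Itga5 (84.6, 69.8, 98 and 65.2 CPM) also had library 1 above library 2 on each side. Their gaps were smaller. The mesenchyme sums had this order in the low gate as well, and the part of vessel or mesenchyme cells in these 4 genes was not tested. Itgb4 and Lamb1 did not vary that way. Itga3, which pairs with the beta 1 subunit to bind laminin, did not pass, at 67.8, 72.8, 77.3 and 69.1 CPM in the Ngn3-high libraries, against 64.6, 67.6, 69.6 and 61.7 CPM in the Ngn3-low libraries (log2 fold change 0.12, SE 0.06, adjusted p = 0.0982).

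Genes of growth factor signalling were mostly lower. Of 20 FGF and EGF genes, 13 were lower, 7 against 2-fold, 5 higher, 2 against 2-fold, and 2 did not pass, with a median of -0.72. Fgfr2, the receptor for FGF10 that keeps progenitors dividing, stood at 71.6, 69.5, 63.2 and 64.8 CPM in the Ngn3-high libraries, against 416, 458, 475 and 523 CPM in the Ngn3-low libraries (log2 fold change -2.79, SE 0.08, adjusted p = 6.87e-11). Erbb3 (-1.79) and Erbb4 (log2 fold change -3.33, SE 0.34, adjusted p = 3.25e-06) were lower. Etv1, an ETS factor, stood at 135, 127, 113 and 113 CPM in the Ngn3-high libraries, against 5.33, 6.75, 5.44 and 5.87 CPM in the Ngn3-low libraries (log2 fold change 4.38, SE 0.08, adjusted p = 3.13e-12), while its relatives Etv4 and Etv5 had -1.26 and 0.39. Fgf14, which acts inside cells on sodium channels, was higher (log2 fold change 4.77, SE 0.29, adjusted p = 3.38e-08).

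Glycolytic genes were lower in 18 of 21 cases, 9 against 2-fold, with 2 higher, 1 not passed and a median of -1.04. The list includes genes that mature beta cells are known to silence. Ldha, lactate dehydrogenase A, stood at 29.6, 22.9, 27.4 and 19.3 CPM in the Ngn3-high libraries, against 491, 396, 515 and 329 CPM in the Ngn3-low libraries (log2 fold change -4.12, SE 0.17, adjusted p = 1.29e-09). Slc16a1, the transporter of lactate and pyruvate MCT1, stood at 1.9, 1.62, 1.31 and 1.63 CPM in the Ngn3-high libraries, against 50.3, 43.7, 50.5 and 48.2 CPM in the Ngn3-low libraries (log2 fold change -4.86, SE 0.12, adjusted p = 2e-11). Hk1, a hexokinase of high glucose affinity, had log2 fold change -4.15, SE 0.23, adjusted p = 1.58e-08. Ldha, Hk1 and Pfkp were higher in low library 1 than 2 on each side, like the endothelial and mesenchyme sums. Slc16a1 was even on the ventral side. The summed list had the same order in the low gate, at 4297, 3774, 4551 and 3412 CPM. In the Ngn3-high libraries, too, this sum was higher in library 1 than 2 on each side, at 2347, 2157, 2354 and 2156 CPM. The part of vessel or mesenchyme cells in the summed list was not tested. Pfkp fell (log2 fold change -2.88, SE 0.29, adjusted p = 2.83e-06), Pfkm (0.56) and Eno2, the neuronal enolase (log2 fold change 1.56, SE 0.26, adjusted p = 0.000195), were higher, and Pkm did not pass (-0.10, adjusted p = 0.315).

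Genes of protein folding in the endoplasmic reticulum differed less than the secretory genes. Of 20, 13 were higher, 4 of them against 2-fold, 3 were lower and 4 did not pass, with a median of 0.48. The 4 past 2-fold fell to 2 without ventral Ngn3-high library 2, in DESeq2 and with all 16 bulk libraries in the fit, and the 3 lower to 1 without dorsal Ngn3-high library 2 or dorsal Ngn3-low library 1. The 4 were Ern1, the stress sensor IRE1 (log2 fold change 1.60, SE 0.07, adjusted p = 1.26e-09), the chaperone Hyou1 (log2 fold change 1.30, SE 0.06, adjusted p = 1.87e-09), Dnajb9 (log2 fold change 1.18, SE 0.08, adjusted p = 9.53e-08) and Manf (log2 fold change 1.12, SE 0.07, adjusted p = 4.96e-08). Hspa5 (BiP), the main chaperone, stood at 1448, 1494, 1478 and 1507 CPM in the Ngn3-high libraries, against 1039, 938, 984 and 896 CPM in the Ngn3-low libraries (log2 fold change 0.62, SE 0.06, adjusted p = 2.65e-06). Xbp1, the factor that IRE1 activates by splicing its RNA, was slightly lower (log2 fold change -0.32, SE 0.11, adjusted p = 0.0168), with overlapping groups, and that call ended without dorsal Ngn3-high library 2 (adjusted p = 0.0532) or dorsal Ngn3-low library 1 (adjusted p = 0.0641) and on either side alone (adjusted p = 0.0836 dorsal, 0.114 ventral). Canx, calnexin, was lower by 0.26 on the log2 scale and did not pass in the ventral contrast alone (-0.17, adjusted p = 0.0849). Hsp90b1 (0.08), Pdia4 (0.07), Pdia6 (-0.02) and Creb3l2 (0.06) did not pass.

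The 10 genes with the largest increases over the whole table, among those past the test against 2-fold at an average log2 CPM of 3 or more, included Chgb, Ins2, Gast, Rimbp2, Sst, Ghrl, Dbpht2, Scgn and Ins1. Rimbp2, a scaffold at sites of calcium-triggered release, stood at 608, 587, 638 and 580 CPM in the Ngn3-high libraries, against 0.815, 1.83, 1.05 and 0.779 CPM in the Ngn3-low libraries (log2 fold change 9.07, SE 0.14, adjusted p = 1.76e-12). Scgn, secretagogin, a calcium-binding protein of endocrine cells, stood at 230.3, 223, 230 and 238 CPM in the Ngn3-high libraries, against 0.251, 0.82, 0.59 and 0.299 CPM in the Ngn3-low libraries (log2 fold change 8.86, SE 0.14, adjusted p = 1.76e-12). Both are secretory genes outside the lists, and neither overlapped between the gates. The 10 largest decreases were Ctss, Lyz2, Nckap1l, Ccr2, Emcn, Ptprc, Pcdh12, Mpeg1, Aplnr and Klhl4. Ctss, cathepsin S, stood at 0.0844, 0, 0 and 0 CPM in the Ngn3-high libraries, against 19.8, 18.2, 20.9 and 16.5 CPM in the Ngn3-low libraries, and Lyz2, lysozyme of macrophages, at 0.211, 0, 0 and 0.0626 CPM in the Ngn3-high libraries, against 31.3, 29.9, 36.6 and 30.1 CPM in the Ngn3-low libraries. Emcn and Ptprc are members of the endothelial and immune marker lists, and Lyz2, Ccr2 and Mpeg1 are known from myeloid cells. The summed markers of vessel and immune cells given above were lower in Ngn3-high as well, and their part in this ranking was not tested.

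The gate difference was then set out on each side. In dorsal cells 10891 genes passed (68.6%), 5371 higher and 5520 lower, and in ventral cells 10995 (69.3%), 5452 higher and 5543 lower. Of these, 9970 passed on both sides, 91.5% of the dorsal and 90.7% of the ventral calls, 9966 of them in the same direction. The other 4 were Sox11, Stk32b, Npnt and Car8, named after their values were seen. Sox11, a SoxC factor like Sox4, stood at 47.6, 46.1, 83.7 and 80.3 CPM in the Ngn3-high libraries, against 64.6, 68.5, 65 and 65 CPM in the Ngn3-low libraries. It was below the low gate in both dorsal high libraries (log2 fold change -0.50) and above it in both ventral ones (0.34).

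A test of the difference between the sides itself called 0 genes (0% of 15872), with 808 at an unadjusted p under 0.05, and its smallest adjusted p was 0.0771. With the replicate number as a block 31 genes passed, 4 higher and 27 lower on the ventral side. Those named next were chosen after their values were seen. Wnk3, a kinase gene, had the smallest adjusted p there (0.00297): it stood at 398, 433, 136 and 168 CPM in the Ngn3-high libraries, against 13.7, 16.9, 14.2 and 14.3 CPM in the Ngn3-low libraries, with gate differences of 4.76 in dorsal and 3.41 in ventral cells. Itpr1, a calcium channel of the endoplasmic reticulum, stood at 308, 299.9, 178 and 168 CPM in the Ngn3-high libraries, against 86.1, 91, 85.9 and 87 CPM in the Ngn3-low libraries (adjusted p = 0.00618 with the block, 0.0771 without). In both genes the low gate was even and the dorsal high libraries were the higher ones. Among genes lower in Ngn3-high cells, Pnliprp1, Cpa1, Ctrb1, Cyr61, Notch2 and Itgb4 fell further in ventral cells under the block, with adjusted p from 0.00481 to 0.0339, and Id2 fell less (adjusted p = 0.0156). In the fit without a block none of these passed (adjusted p of 0.0864 for Pnliprp1, 0.147 for Cpa1 and 0.147 for Id2).

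**Figure D5:**
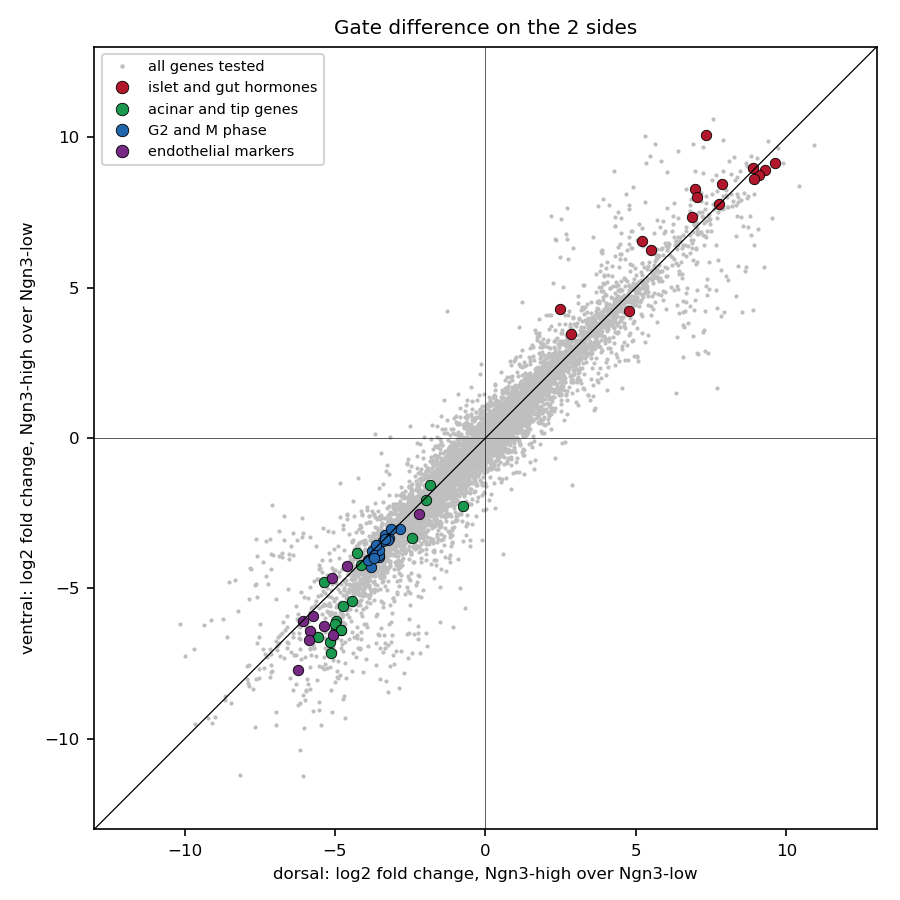
Log2 fold change, Ngn3-high over Ngn3-low, in ventral (y axis) against dorsal cells (x axis) for all 15872 tested genes (grey) and 4 gene lists (colours); the diagonal marks equal differences. Below the diagonal lie 14 of 17 acinar genes, 15 of 19 G2 and M phase genes and 8 of 10 endothelial markers, against 5 of 16 hormones and 50% of all genes, and of the hormones Gcg has 4.78 in dorsal and 4.21 in ventral cells.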

How the data were processed

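Poly(A) RNA of sorted cells was sequenced from directional libraries, per the labels' protocols. Per the submitters' processing notes, reads were aligned to GRCm38 (mm10) with TopHat2 2.1.0 and Bowtie2 and counted with HTSeq 0.6.0. No source at hand names the annotation release or strand setting, so reads of overlapping, antisense or near-identical genes may be misassigned. The deposited counts are whole reads for 40824 genes and 92 ERCC rows, which were left out. The RPKM deposited by the authors pool the 2 libraries of a group and lay within 0.005 of values recomputed here from the counts, so levels per kilobase were computed per library with the deposited gene length.

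edgeR 4.0.16 (R 4.3.3) was run on the 8 libraries: filterByExpr on the 4 groups, TMM, and the quasi-likelihood F test with side and gate, with Benjamini-Hochberg adjustment over 15872 genes. The test against 2-fold was glmTreat of the same fit. Side contrasts used 1 mean per group. SE was taken as the absolute log2 fold change over the root of F. DESeq2 1.42.0, RLE scaling, no filter, all 16 libraries, a replicate block and each library left out were alternatives. Same-numbered libraries of different groups deviated together across genes, with 6 of 6 correlations between 0.108 and 0.332. The main fit, with side and gate only, takes no account of this. Only the replicate block treats the numbers as pairs, and the labels do not say that they are. No 2 libraries of a group agreed within counting noise. In simulated data of this design 200 of 15872 genes were changed, all drawn from genes above a read floor. There edgeR recovered 91% of 2-fold and 100% of 4-fold gate differences, with 24 false calls beside them. In the data 78.4% of genes passed, so these rates describe the simulated setting only.

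Named genes were 36 key genes, up to 4 members per list with the largest fold change among those that passed without overlap, up to 2 against the list's direction, and the 10 largest changes per direction (without clone-named, ribosomal and mitochondrial genes). Other members are given by value. Single-cell files were not used. Some genes that this rule names are not reported here. The genes, motifs and 28 lists were chosen with earlier results of these data known. Gene positions are those of GENCODE vM21 and promoters those of RefSeq (GRCm38.p6). Of 7 promoter motifs searched, each is given for the list it belongs to.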

Additional observations from a re-analysis of the deposited data

Results flagged for a closer look

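In each gate the 4 libraries were searched for a single one far from the other 3, over 162 genes, the depth and the summed lists. Of 382 sets of 4 values, 16 (4.19%) held such a library, where chance flags about 1 in 20. The 4 libraries of a gate also come from 2 sides. Dorsal Ngn3-low library 2 stood apart in 4 cases. Gcg was at 139 CPM there, against 6.48, 18.9 and 28.1 CPM in the other 3 low libraries. The summed hormone list was at 164 against 20.5, 28.9 and 39 CPM, but this sum includes Gcg and is not a separate case. The granule gene Scg3 was at 3.72 against 1.14, 1.25 and 1.44 CPM, and Tm4sf4 at 50.4 against 41.7, 42 and 42.2 CPM. Ventral Ngn3-low library 2 was low in the immune sum, at 175 against 234, 237 and 244 CPM, in Tyrobp at 6.29 against 9.33, 9.4 and 9.69 CPM, and in Slc30a8 at 0.12 CPM. Ventral Ngn3-low library 1 was apart in Rrm2 at 157 CPM and Fgf14 at 0.262 CPM.

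In the Ngn3-high gate, dorsal library 1 stood apart in Aplnr at 2.83 against 0.476, 0.626 and 0.769 CPM and in Ctss at 0.0844 CPM, where the other 3 had no read. Dorsal library 2 was high in Cdk1 at 10.8 against 8.14, 8.45 and 8.48 CPM and in Stmn2 at 0.476 CPM. Ventral library 2 was low in Hk1 at 0.815 CPM, Klhl4 at 0.0626 CPM and Nop56 at 45.2 against 55.2, 55.3 and 55.5 CPM. No call of these genes changed when that library was left out.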

How the results depend on the processing

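Every gate count below is given as higher and lower genes. DESeq2 gave 5897 and 6170, RLE scaling 6097 and 6321, no filter on low counts 6387 and 6802, and all 16 bulk libraries in the fit 5976 and 6541, against 6196 and 6255. Leaving out 1 library gave 5859 to 6234 higher and 6157 to 6321 lower genes, and 2171 to 2285 and 2859 to 2952 past 2-fold. A threshold of 1.5-fold called 3420 higher and 4030 lower genes, against 2234 and 2865 at 2-fold. Of 2430 comparisons of 162 named genes with an alternative, 2416 kept the direction and the side of the threshold, 10 lost the call (Sox4, Xbp1 and Canx), 4 gained it (Snai2) and 0 reversed. Over the genes shared with the main fit, the median shift in log2 fold change was at most 0.036 in size in any setting.

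The count of genes whose gate difference differed between the sides was unstable: 0 in edgeR, 40 in DESeq2, 185 with no filter on low counts, 2 with all 16 libraries (Wnk3 and Pnliprp1), and 0 to 15 with 1 library left out, 6 when ventral Ngn3-low library 1 was dropped and 15 when library 2 of that group was. With the replicate block it was 31. Among the 162 named genes the block changed only the call of Snai2 (adjusted p = 0.0475), and it gave 6398 higher and 6413 lower genes. Members outside these 162 genes were not compared with it one by one. In the erythroid list 1 member passed as higher with the block, against 0 without it. With 2 libraries a group, edgeR recovered 66% of the simulated side differences of 2-fold, with 11 false calls. The simulated libraries did not share the deviation seen between same-numbered libraries, so this rate describes the simulated setting only. Even there differences of that size were missed, which limits this test.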

Other observations

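Set beside the other bulk libraries of the series, with 16 libraries scaled together, several genes of the Ngn3-high gate were higher there than in the 4 libraries of E17.5 Ins1+ cells, a later and differently sorted population. These are levels with no test, and stage, reporter and sort differ together. Gast stood at 115 to 123 CPM in E14.5 Ngn3-high and 3.93 to 6.01 CPM in E17.5 Ins1+ libraries, Cck at 102 to 134 and 0.722 to 2.39 CPM, Pax4 at 197 to 242 and 5.63 to 7.16 CPM, Fev at 198 to 258 and 27.4 to 38 CPM, and Chgb at 6376 to 10550 and 2565 to 3529 CPM. Neurog3 stood at 860.3 to 1011 CPM in Ngn3-high, 98.4 to 149 CPM in Ngn3-low and 20.3 to 24.1 CPM in Ins1+ libraries.

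Ins2, Mafa, Slc2a2 and Mki67 were higher in the Ins1+ than in the Ngn3-high libraries. Ins2 stood at 717 to 1064 CPM in E14.5 Ngn3-high and 43580 to 54030 CPM in E17.5 Ins1+ libraries, and Mafa at 16.2 to 21.5 CPM in Ngn3-high and 74.6 to 211 CPM in Ins1+ libraries. Slc2a2, lower in Ngn3-high than in Ngn3-low cells, stood at 56.8 to 75.1 CPM in Ngn3-high, 104 to 127 CPM in Ngn3-low and 731 to 771 CPM in Ins1+ libraries. For Ldha the Ngn3-high and Ins1+ libraries overlapped, at 18.6 to 28.7 and 26.6 to 45.5 CPM, with 326 to 509 CPM in Ngn3-low libraries. Mki67 was at 41.7 to 49.9 CPM in Ngn3-high, 592 to 692 CPM in Ngn3-low and 167 to 190 CPM in Ins1+ libraries.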
